A study of Oryza sativa Indica Group with 27 samples.

Results

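Heat shock proteins and the heat shock factors that control their genes were followed through a salt treatment of rice seedlings. The genes were taken by name: 18 small heat shock proteins from HSP16.0 to HSP26.7, the 3 HSP90 genes HSP81-1, HSP81-2 and HSP81-3, the HSP100 gene hsp101, and 18 heat shock factors, of which 10 belong to class A, 5 to class B and 3 to class C. These 40 genes are part of the 17905 genes that were paired with at least 1 probe set, and each is read from 1 probe set, the brightest of its own. Of the 40 genes, 28 had 1 probe set and 12 had several. No probe set was paired with 6 related names, which were not analysed here (HSP16.9C, HSP18.9, HSP19.0, HSFC2B, HSFA6A and HSFB4C).

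The arrays come from whole 7-day-old seedlings of 3 indica cultivars grown in hydroponic medium: Nonabokra and Pokkali, known as salt tolerant, and IR29, known as salt susceptible. Seedlings of each cultivar stood in 200 mM sodium chloride for 3 h or for 6 h, and unstressed seedlings stayed in growth medium for 6 h, so no control shares the 3 h time in solution. Each of the 9 groups has 3 arrays from separate biological replicates, 27 arrays in all, and the number of seedlings behind an array is not given in the sources used here. The free-text descriptions of the 3 h arrays name drought, whereas their stress label names salinity, and these arrays are treated as salt here.

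Levels are the deposited intensities, the summarised brightness of a probe set, which can be compared between arrays for 1 gene but not between genes. A change is the difference of log2(intensity + 16) between 2 groups, salt minus control unless said otherwise, with the standard error (SE) of limma's linear model. A change of 1 is 2-fold on that scale, and the added 16 understates the change of dim genes. A gene is called higher or lower where its p, adjusted by the Benjamini-Hochberg method over 57194 probe sets, is under 0.05. In whole seedlings, fewer cells of a type and less RNA per cell cannot be told apart.

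Small heat shock proteins bind unfolding proteins and keep them from clumping, HSP90 proteins help signalling proteins and other clients reach their active fold, and HSP100 proteins of the ClpB type pull proteins back out of aggregates. Plant heat shock factors bind heat shock elements in promoters and fall into 3 classes. Class A factors carry activator motifs and switch chaperone genes on, class B factors lack those motifs and several act as repressors in Arabidopsis, and class C factors are less well described. Besides heat, salt, drought and abscisic acid are known to change the expression of some of these genes in plants.

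Signs of labelling and RNA quality, and some tissue markers, moved with salt. The poly-A control RNAs, which are added to a sample before labelling, averaged 8.08 to 9.23 (log2 of intensity + 16) on the unstressed arrays, 7.90 to 8.38 on the 3 h arrays and 6.35 to 7.49 on the 6 h arrays. The log2 of 5' over 3' signal of actin, which falls as RNA degrades, was -3.75 to -3.48 in unstressed Pokkali, -4.96 to -3.86 at 3 h and -4.38 to -4.11 at 6 h. In IR29 it was -4.03 to -3.44 unstressed, -5.06 to -4.17 at 3 h and -4.70 to -3.93 at 6 h, and in Nonabokra the 3 groups overlapped, between -4.41 and -3.15. The summed intensity of 4 root markers (Lsi1, Lsi2, IRT1 and CASP1) was 7539 to 8405 in unstressed Nonabokra, 2035 to 2168 after 3 h in salt and 4871 to 5433 after 6 h. In Pokkali the sum was 4882 to 5069, 1203 to 1416 and 2636 to 2840 at those times, and in IR29 8940 to 9883, 558 to 622 and 1781 to 2264. The sum mainly follows Lsi1 and Lsi2, which averaged 5986 and 2003 in unstressed Nonabokra, where IRT1 averaged 12.3 and CASP1 11.2. The 4 genes did not move alike: at 3 h Lsi1 and Lsi2, the silicon transporters, fell in every cultivar, Lsi1 by -2.12 (Nonabokra), -1.99 (Pokkali) and -4.41 (IR29), whereas CASP1 rose in Nonabokra (0.70) and Pokkali (0.97) and fell in IR29 (-0.82). IRT1 changed at 3 h by 0.66 (Nonabokra), -0.16 (Pokkali, not called) and -2.62 (IR29). The 5 shoot markers summed to between 69417 and 87897 in every group, of which PSAG rose at 3 h by 2.69 (Nonabokra), 2.24 (Pokkali) and 1.63 (IR29), while the other 4 changed by -0.19 to 0.084. The part of root RNA, of RNA quality and of labelling in the changes reported here was not tested.

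At any size of change, salt raised more of the heat shock genes than it lowered in each cultivar. At 3 h, 22 of the 40 genes were higher and 6 lower in Nonabokra, where 27.4% of all 17905 genes were called higher and 30.2% lower. In Pokkali 15 were higher and 9 lower, against 24.9% and 28.2% of all genes, and in IR29 29 were higher and 4 lower, against 32.7% and 31.4%. At 6 h the counts were 18 higher and 6 lower in Nonabokra, against 22.4% and 24.7% of all genes. In Pokkali at 6 h they were 12 higher and 9 lower, with 43.5% of all genes called in either direction, and in IR29 19 higher and 6 lower, with 52.9% called. Of all 17905 genes, 3802 were called higher and 3988 lower in Pokkali at 6 h, and 4649 and 4830 in IR29. The 9 lower in Pokkali were thus close to the share of all genes. The 3 h and 6 h comparisons of a cultivar share its unstressed arrays. Calls at any size are common on these arrays, so the counts of changes of 2-fold or more separate the genes better.

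At 3 h, 13 of the 40 genes rose by 2-fold or more in Nonabokra, against 7.62% of all genes, 5 in Pokkali, against 5.66%, and 10 in IR29, against 5.96%. Falls of that size were made by 2 genes in Nonabokra (6.80% of all genes), 5 in Pokkali (5.79%) and 1 in IR29 (3.18%). At 6 h, 8 genes rose 2-fold or more in Nonabokra (3.93% of all genes), 4 in Pokkali (4.62%) and 6 in IR29. The falls at 6 h were 1 gene in Nonabokra (4.04% of all genes), 3 in Pokkali (2.22%) and 0 in IR29, where 5.45% of all genes changed by that size in either direction and limma called 6 of the 40 genes lower at any size. The median change of the 40 genes at 3 h was 0.29 in Nonabokra, 0.05 in Pokkali and 0.44 in IR29, beside medians over all genes between -0.0037 and 0.00069.

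**Figure D1:**
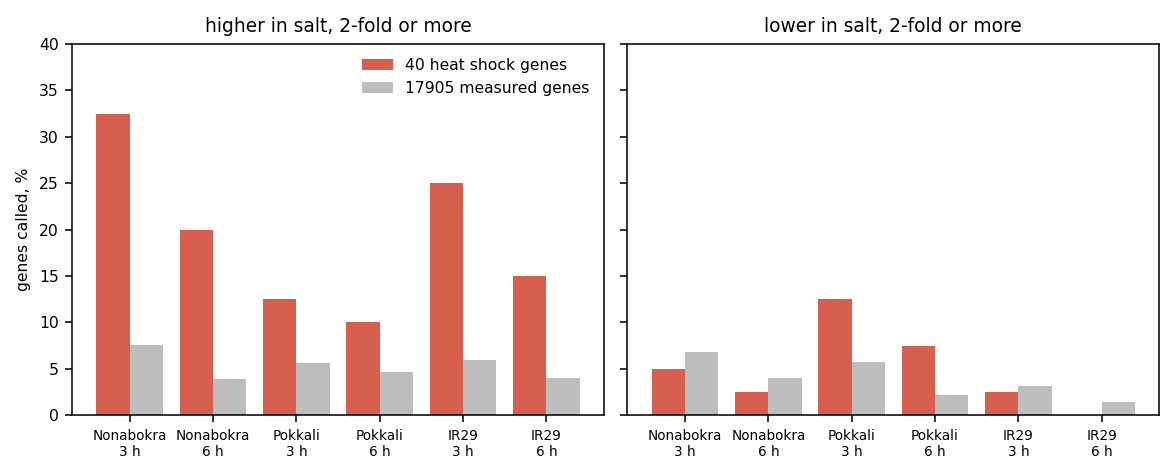
Bars give the percentage of genes called with a change of 2-fold or more in salt, higher on the left and lower on the right, for the 40 heat shock genes (red) and for all 17905 measured genes (grey) in each cultivar and time. The share higher was 32.5% of the heat shock genes in Nonabokra at 3 h, 12.5% in Pokkali and 25% in IR29.

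The salt comparisons of different cultivars share no arrays. In all 3 cultivars at 3 h, 13 of the 40 genes were called higher, where 15.8% of all genes were: the small heat shock proteins HSP16.9A, HSP16.9B, HSP18.0, HSP18.6 and HSP26.2, the chaperones HSP81-2, HSP81-3 and hsp101, and the factors HSFA2E, HSFB1, HSFB2A, HSFB2C and HSFC2A. The change was 2-fold or more in every cultivar for 4 of them, HSFB2A, HSFB2C, HSP16.9A and hsp101, against 2.56% of all genes. Among the 13, some calls were lost when 1 array was left out: HSP18.6 in IR29, HSP18.0 in Nonabokra and in IR29, and HSFA2E and HSP81-2 in Pokkali. HSFC1B alone was called lower in all 3, against 15.5% of all genes. At 6 h, 7 genes were called higher in all 3 cultivars (HSFA3, HSFB1, HSFB2A, HSFB2C, HSP16.9A, HSP81-2 and HSP81-3), against 10.1% of all genes. HSFB2A alone was higher at 2-fold or more in each at 6 h (1.35% of all genes), and HSP17.9B alone was called lower in all 3 (8.46%). Opposite calls in 2 cultivars were made for 8 genes at 3 h, against 6.88% of all genes, and for 7 at 6 h, against 7.06%. No salt comparison called HSFB4B, HSP17.8 or HSP21.9 on their brightest probe sets. A second probe set of HSFB4B was called higher in Pokkali (0.16, adjusted p = 0.040) and lower in IR29 (-0.16, adjusted p = 0.018) at 3 h.

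**Figure D2:**
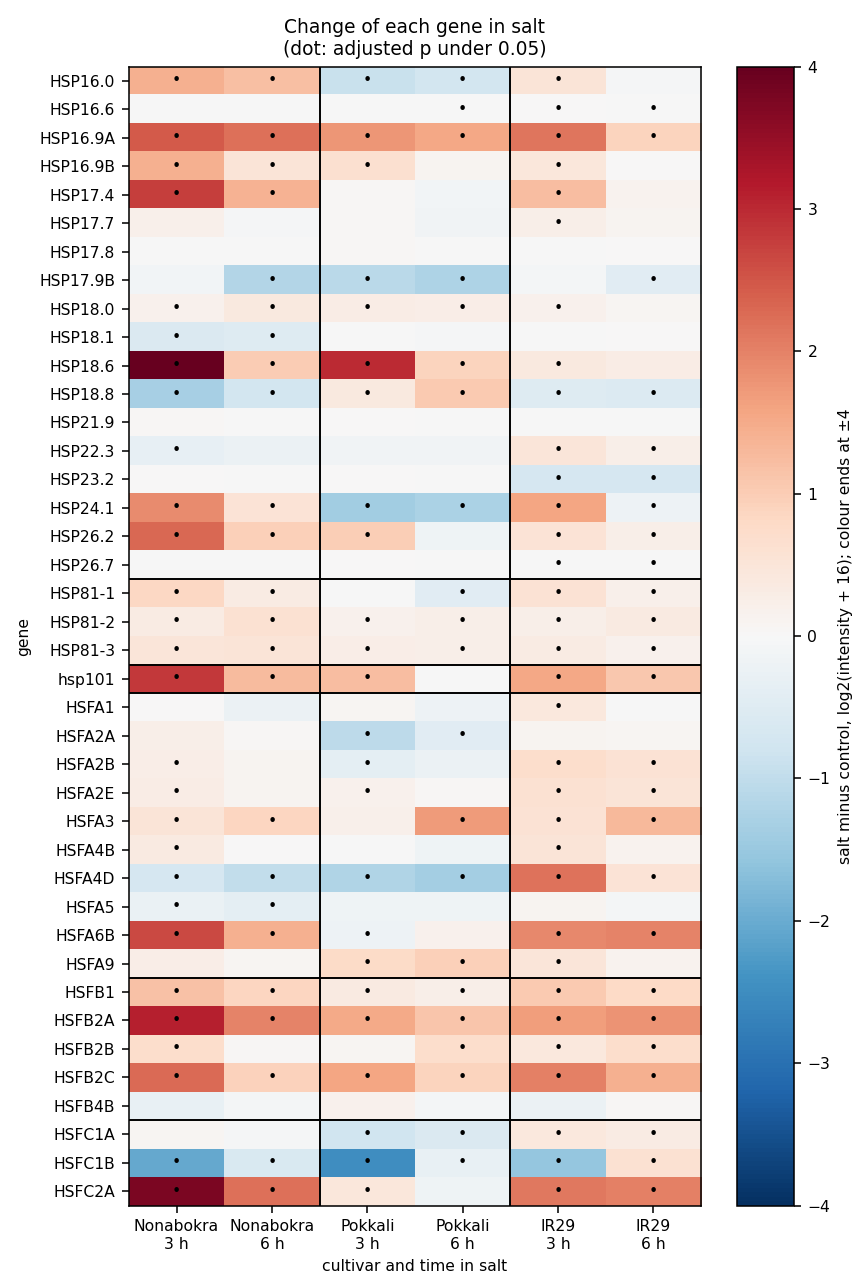
Each cell gives the change of 1 gene in salt, as log2(intensity + 16) in salt minus control, for each cultivar and time, with higher in red, lower in blue, and a dot where the adjusted p was under 0.05. Lines separate small heat shock proteins, HSP90, HSP100 and class A, B and C factors, and HSP18.6 in Nonabokra at 3 h, at 4.75, lies beyond the end of the colour scale.

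HSP18.6 made the largest change of the 40 genes, and it separated the cultivars. It is a small heat shock protein of class III in rice, a class placed in the nucleus in Arabidopsis. HSP18.6 read 29.2, 22.6 and 28.0 in unstressed Nonabokra, 978, 1311 and 1108 after 3 h in salt and 72.0, 81.0 and 59.7 after 6 h. In Pokkali HSP18.6 read 37.8, 30.2 and 30.8 unstressed, 349.9, 395 and 368 after 3 h and 72.5, 70.7 and 80.3 after 6 h. In IR29 HSP18.6 read 38.5, 18.7 and 27.6 unstressed, 40.4, 42.8 and 41.6 after 3 h and 50.5, 32.2 and 32.7 after 6 h. The 3 h arrays stood far above the unstressed ones in Nonabokra and Pokkali, while in IR29 they lay just above the highest unstressed array and the 6 h arrays overlapped with the unstressed ones. For HSP18.6 the change at 3 h (SE 0.15) was 4.75 in Nonabokra (adjusted p = 9.7e-16), 2.98 in Pokkali (adjusted p = 1.9e-12) and 0.40 in IR29 (adjusted p = 0.021), and at 6 h it was 1.02 in Nonabokra (adjusted p = 1.4e-05), 0.89 in Pokkali (adjusted p = 9.0e-05) and 0.31 in IR29 (adjusted p = 0.084). The IR29 call at 3 h was lost without IR29 control replicate 2 (0.24, adjusted p = 0.16) and without IR29 3 h replicate 2 (0.39, adjusted p = 0.055), and at 6 h a call appeared without IR29 control replicate 1 (0.47, adjusted p = 0.021). At 3 h a second probe set of HSP18.6 gave 3.73 in Nonabokra, 2.37 in Pokkali and -0.053 in IR29, the last not called (adjusted p = 0.60).

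HSP17.4, a class I small heat shock protein of the cytosol, was already high in unstressed Pokkali. HSP17.4 read 24.5, 35.1 and 47.5 in unstressed Nonabokra, 307, 351 and 331 after 3 h in salt and 136, 126 and 96.4 after 6 h. In Pokkali HSP17.4 read 345, 334 and 368 unstressed, 356, 371 and 359 after 3 h and 328, 326 and 303 after 6 h. In IR29 HSP17.4 read 55.1, 54.0 and 53.5 unstressed, 151, 152 and 145 after 3 h and 72.3, 57.8 and 56.8 after 6 h. Nonabokra reached the Pokkali level only on its 3 h arrays, Pokkali stayed within a narrow range at all times, and IR29 was raised on its 3 h arrays. For HSP17.4 the change at 3 h (SE 0.12) was 2.76 in Nonabokra (adjusted p = 2.2e-13), 0.051 in Pokkali (adjusted p = 1.00) and 1.24 in IR29 (adjusted p = 7.7e-08). At 6 h HSP17.4 gave 1.40 in Nonabokra (adjusted p = 1.4e-08), -0.12 in Pokkali (adjusted p = 0.44) and 0.15 in IR29 (adjusted p = 0.31). HSP17.4 lies next to HSP18.1 and HSP17.7 in the RefSeq gene order, and of these HSP17.7 ranged from 193 to 364 over all arrays and HSP18.1 was at most 23.17.

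HSP16.9A and HSP16.9B, class I small heat shock proteins whose genes lie side by side, both rose in every cultivar at 3 h. The gene record of HSP16.9A also carries the name HSP16.9B, and the neighbouring HSP16.9C has no probe set here. HSP16.9A and HSP16.9B are paired with separate probe sets whose values differ, and counting them as 2 genes rests on that pairing. How far either probe set also reads the close copies was not tested. HSP16.9A read 23.7, 19.9 and 23.5 in unstressed Nonabokra, 196, 196 and 186 after 3 h in salt and 185, 169.5 and 130.0 after 6 h. In Pokkali HSP16.9A read 12.6, 13.4 and 11.3 unstressed, 71.9, 86.5 and 84.0 after 3 h and 60.9, 70.2 and 68.5 after 6 h. In IR29 HSP16.9A read 17.1, 21.1 and 20.4 unstressed, 145, 145 and 136 after 3 h and 65.2, 44.0 and 41.6 after 6 h. Every salt array lay above every unstressed array of its cultivar, and at 6 h against 3 h the call was made in IR29 (-1.27, adjusted p = 7.5e-08) but not in Nonabokra (-0.25, adjusted p = 0.15) or Pokkali (-0.23, adjusted p = 0.11). For HSP16.9A the change at 3 h (SE 0.11) was 2.44 in Nonabokra (adjusted p = 4.6e-13), 1.76 in Pokkali (adjusted p = 9.9e-11) and 2.15 in IR29 (adjusted p = 6.2e-12), and at 6 h it was 2.20 in Nonabokra (adjusted p = 4.9e-12), 1.54 in Pokkali (adjusted p = 1.4e-09) and 0.88 in IR29 (adjusted p = 4.2e-06).

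HSP16.9B was dim. It read 5.84, 5.64 and 5.80 in unstressed Nonabokra, 42.4, 41.6 and 41.7 after 3 h in salt and 17.93, 15.2 and 11.7 after 6 h. In Pokkali HSP16.9B read 5.30, 5.21 and 5.28 unstressed, 15.1, 19.6 and 17.2 after 3 h and 5.97, 6.76 and 7.65 after 6 h. In IR29 HSP16.9B read 5.16, 5.58 and 5.86 unstressed, 8.998, 17.3 and 14.5 after 3 h and 5.95, 5.76 and 5.81 after 6 h. The 3 h arrays were above the unstressed ones in each cultivar, Nonabokra by the most, and by 6 h the IR29 arrays overlapped with their controls. For HSP16.9B the change at 3 h (SE 0.076) was 1.41 in Nonabokra (adjusted p = 5.6e-12), 0.64 in Pokkali (adjusted p = 8.9e-07) and 0.45 in IR29 (adjusted p = 8.4e-05). At 6 h HSP16.9B was called in Nonabokra alone (0.50, adjusted p = 2.8e-05), with 0.10 in Pokkali (adjusted p = 0.32) and 0.021 in IR29 (adjusted p = 0.85).

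The mitochondrial small heat shock proteins HSP26.2 and HSP24.1 rose together in Nonabokra and parted in Pokkali. HSP26.2 read 94.9, 73.6 and 95.5 in unstressed Nonabokra, 491, 537 and 462 after 3 h in salt and 196, 175 and 185 after 6 h. In Pokkali HSP26.2 read 216, 241 and 268 unstressed, 459.7, 491 and 526 after 3 h and 224, 221 and 196 after 6 h. In IR29 HSP26.2 read 302, 356 and 283 unstressed, 466, 485 and 452 after 3 h and 353, 358 and 410.2 after 6 h. The 3 cultivars came to like levels at 3 h from unstressed levels that were lowest in Nonabokra and highest in IR29. For HSP26.2 the change at 3 h (SE 0.10) was 2.31 in Nonabokra (adjusted p = 1.3e-13), 0.98 in Pokkali (adjusted p = 7.7e-08) and 0.56 in IR29 (adjusted p = 1.1e-04). At 6 h HSP26.2 gave 0.96 in Nonabokra (adjusted p = 1.5e-07), -0.16 in Pokkali (adjusted p = 0.21) and 0.24 in IR29 (adjusted p = 0.041). The IR29 call at 6 h was lost without IR29 control replicate 1 or 3 or IR29 6 h replicate 2 or 3 (0.18 to 0.27, adjusted p 0.064 to 0.17).

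HSP24.1 read 367, 397 and 406 in unstressed Nonabokra, 1527, 1486 and 1495 after 3 h in salt and 532, 571 and 613 after 6 h. In Pokkali HSP24.1 read 3155, 3284 and 2740.2 unstressed, 1216, 1064 and 1152 after 3 h and 1169, 1419 and 1216 after 6 h. In IR29 HSP24.1 read 553, 474 and 472 unstressed, 1589, 1597 and 1407 after 3 h and 447, 420.0 and 427 after 6 h. Salt brought Pokkali down and the other 2 cultivars up, so that at 3 h all 9 arrays lay between 1064 and 1597. For HSP24.1 the change at 3 h (SE 0.082) was 1.90 in Nonabokra (adjusted p = 1.8e-13), -1.40 in Pokkali (adjusted p = 2.8e-11) and 1.59 in IR29 (adjusted p = 5.9e-12). At 6 h HSP24.1 gave 0.53 in Nonabokra (adjusted p = 3.5e-05), -1.26 in Pokkali (adjusted p = 2.6e-10) and -0.20 in IR29 (adjusted p = 0.044). The IR29 call at 6 h was lost without any of 9 arrays: IR29 control replicate 1 (-0.13, adjusted p = 0.24), IR29 6 h replicates 2 and 3 (adjusted p 0.12 and 0.095), and, through the shared spread, Nonabokra control replicate 2, all 3 Nonabokra 3 h arrays, Nonabokra 6 h replicate 2 and Pokkali 3 h replicate 3 (adjusted p 0.050 to 0.051).

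HSP16.0, placed in the peroxisome in rice, showed the same opposition. HSP16.0 read 16.7, 15.4 and 15.3 in unstressed Nonabokra, 59.7, 80.6 and 66.7 after 3 h in salt and 60.4, 52.6 and 57.3 after 6 h. In Pokkali HSP16.0 read 95.1, 84.9 and 105 unstressed, 43.3, 43.3 and 46.7 after 3 h and 56.9, 45.2 and 49.3 after 6 h. In IR29 HSP16.0 read 19.6, 21.6 and 20.4 unstressed, 36.7, 32.2 and 40.7 after 3 h and 25.1, 18.7 and 15.9 after 6 h. All salt arrays lay above the unstressed ones in Nonabokra and below them in Pokkali, and in IR29 the 3 h arrays were above and the 6 h arrays overlapped. For HSP16.0 the change at 3 h (SE 0.094) was 1.41 in Nonabokra (adjusted p = 1.8e-10), -0.88 in Pokkali (adjusted p = 2.7e-07) and 0.52 in IR29 (adjusted p = 1.7e-04), and at 6 h it was 1.19 in Nonabokra (adjusted p = 4.4e-09), -0.74 in Pokkali (adjusted p = 4.2e-06) and -0.032 in IR29 (adjusted p = 0.81).

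HSP18.8, a class V small heat shock protein, and HSP17.9B were bright on every array and fell in salt in most groups. HSP18.8 read 10577, 9881 and 8933 in unstressed Nonabokra, 3913, 3803 and 3985 after 3 h in salt and 6045, 6045 and 5490.1 after 6 h. In Pokkali HSP18.8 read 6045, 5964 and 5059.6 unstressed, 7467, 7405 and 7629 after 3 h and 11807, 11746 and 11477 after 6 h. In IR29 HSP18.8 read 6368, 6352 and 6827 unstressed, 4760.5, 4511 and 4285 after 3 h and 4348, 4369 and 4574 after 6 h. The salt arrays lay below their controls in Nonabokra and IR29 and above them in Pokkali, with no overlap in any cultivar. For HSP18.8 the change at 3 h (SE 0.063) was -1.32 in Nonabokra (adjusted p = 8.2e-13), 0.40 in Pokkali (adjusted p = 3.3e-05) and -0.53 in IR29 (adjusted p = 1.2e-06), and at 6 h it was -0.74 in Nonabokra (adjusted p = 1.2e-08), 1.04 in Pokkali (adjusted p = 8.3e-11) and -0.55 in IR29 (adjusted p = 9.9e-07).

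HSP17.9B read 3066, 2833 and 3048 in unstressed Nonabokra, 2942, 2608 and 2787 after 3 h in salt and 1387, 1234 and 1306 after 6 h. In Pokkali HSP17.9B read 4535, 3788 and 4009 unstressed, 1960.0, 1978 and 1906 after 3 h and 1931, 1758 and 1555 after 6 h. In IR29 HSP17.9B read 2355, 2503 and 2428 unstressed, 2285, 2249 and 2327 after 3 h and 1800.2, 1804 and 1658 after 6 h. Pokkali had dropped by 3 h, and the other 2 cultivars lay clearly below their controls only at 6 h. For HSP17.9B the change at 3 h (SE 0.07) was -0.10 in Nonabokra (adjusted p = 0.41), -1.07 in Pokkali (adjusted p = 1.7e-10) and -0.086 in IR29 (adjusted p = 0.30). At 6 h HSP17.9B gave -1.18 in Nonabokra (adjusted p = 5.5e-11), -1.23 in Pokkali (adjusted p = 3.7e-11) and -0.47 in IR29 (adjusted p = 3.5e-05). The HSP17.9B gene stands in a row with HSP16.6, HSP16.9C, HSP16.9A and HSP16.9B in the RefSeq gene order, with no gene between them, and HSP16.9A changed in the opposite direction in each cultivar at 6 h.

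On their brightest probe sets, the other 9 small heat shock proteins changed by less than 2-fold in every salt comparison. HSP16.6, HSP17.8, HSP21.9 and HSP26.7 were dim, between 5.32 and 10.6 on all arrays, and the calls made for HSP16.6 and HSP26.7 were of changes no larger than 0.03. HSP18.0, a class II protein of the cytosol, ranged from 216 to 403 and rose at 3 h by 0.18 in Nonabokra, 0.31 in Pokkali and 0.16 in IR29. HSP18.0 was called in Nonabokra and Pokkali at 6 h too (0.38 and 0.28). Leaving out 1 of 3 arrays (Nonabokra control replicate 2 or Nonabokra 3 h replicate 1 or 3) ended the Nonabokra call of HSP18.0 at 3 h, and 1 of 3 (IR29 control replicate 3 or IR29 3 h replicate 1 or 3) the IR29 call, with changes of 0.11 to 0.22. A dimmer probe set of HSP18.0, with a mean intensity of 17.1, changed more at 3 h: by 1.75 in Nonabokra (adjusted p = 2.5e-12), 0.94 in Pokkali (adjusted p = 4.2e-08) and 0.22 in IR29 (adjusted p = 0.035). The remaining HSP18.0 probe set, with a mean intensity of 32.8, was called in Pokkali (0.50) and IR29 (0.46) but not in Nonabokra (0.13) at 3 h, so the size of the HSP18.0 change depends on the probe set. HSP17.7 was called in IR29 at 3 h (0.24, adjusted p = 0.04), a call lost without any 1 of the 6 arrays compared. HSP22.3 fell in Nonabokra (-0.32) and rose in IR29 (0.48) at 3 h, the Nonabokra call being lost without Nonabokra 3 h replicate 1 (-0.28).

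A pair of these proteins, dim as well, read highest in a single unstressed group. HSP18.1 read 17.5, 20.2 and 23.17 in unstressed Nonabokra, with 7.32, 9.72 and 8.03 after 3 h and 7.50, 7.37 and 13.0 after 6 h, and lay between 6.60 and 8.02 on all arrays of Pokkali and IR29. HSP23.2 read 22.7, 23.6 and 13.7 in unstressed IR29, and was between 6.13 and 6.71 on the other 24 arrays. On their brightest probe sets both fell in salt in the cultivar named. The change at 3 h was -0.57 for HSP18.1 in Nonabokra (adjusted p = 1.7e-07) and -0.67 for HSP23.2 in IR29 (adjusted p = 3.7e-08). A second probe set of HSP18.1, with a mean intensity of 6.87, was not called in Nonabokra at 3 h (0.18, adjusted p = 0.069) or 6 h (-0.013). The fall of HSP18.1 thus depends on the probe set.

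hsp101, the ClpB disaggregase of the cytosol that plants need for acquired heat tolerance, rose at 3 h in all 3 cultivars. hsp101 read 18.9, 28.7 and 26.8 in unstressed Nonabokra, 247, 279.7 and 292 after 3 h in salt and 87.3, 83.5 and 71.5 after 6 h. In Pokkali hsp101 read 69.6, 70.8 and 79.7 unstressed, 191, 198 and 194 after 3 h and 72.9, 71.6 and 71.0 after 6 h. In IR29 hsp101 read 15.4, 14.4 and 15.4 unstressed, 75.7, 81.7 and 70.3 after 3 h and 54.9, 46.0 and 48.1 after 6 h. All 3 h arrays lay above their controls, and at 6 h Pokkali overlapped with its controls while Nonabokra and IR29 stayed above theirs. For hsp101 the change at 3 h (SE 0.082) was 2.83 in Nonabokra (adjusted p = 4.0e-16), 1.23 in Pokkali (adjusted p = 2.1e-10) and 1.56 in IR29 (adjusted p = 7.7e-12). At 6 h hsp101 gave 1.25 in Nonabokra (adjusted p = 2.6e-10), -0.023 in Pokkali (adjusted p = 0.85) and 1.08 in IR29 (adjusted p = 3.8e-09).

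The HSP90 genes were bright on every array and changed by less than 2-fold in every salt comparison. HSP81-1 read 5386, 5204 and 5334 in unstressed Nonabokra, 9416, 9830.4 and 9009.9 after 3 h in salt and 7234, 6435 and 6365 after 6 h. In Pokkali HSP81-1 read 9179, 8906 and 8557 unstressed, 8544, 9049 and 9012 after 3 h and 6347, 6219.8 and 6809 after 6 h. In IR29 HSP81-1 read 6242, 7008 and 7013 unstressed, 10358, 9723 and 10494 after 3 h and 7864, 7777 and 7866 after 6 h. Salt arrays were above their controls in Nonabokra and IR29, whereas in Pokkali they overlapped at 3 h and lay below at 6 h. For HSP81-1 the change at 3 h (SE 0.052) was 0.82 in Nonabokra (adjusted p = 6.5e-11), -0.0019 in Pokkali (adjusted p = 1.00) and 0.59 in IR29 (adjusted p = 1.5e-08). At 6 h HSP81-1 gave 0.33 in Nonabokra (adjusted p = 4.8e-05), -0.46 in Pokkali (adjusted p = 7.9e-07) and 0.22 in IR29 (adjusted p = 0.003). The second probe set of HSP81-1, dimmer on average, was called lower in Nonabokra at 3 h (-0.44, adjusted p = 0.014) and again at 6 h (-0.44, adjusted p = 0.019), so the direction in Nonabokra depends on the probe set.

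HSP81-2 and HSP81-3, cytosolic HSP90 genes with 2 genes between them in the RefSeq gene order, were called higher in all 6 salt comparisons on their brightest probe sets. HSP81-2 read 9788, 10538 and 10955 in unstressed Nonabokra, 12868, 12877 and 13077 after 3 h in salt and 16699, 15266 and 16110.3 after 6 h. In Pokkali HSP81-2 read 12534, 13411 and 13659 unstressed, 14830.5, 14433 and 15053 after 3 h and 15327, 15535 and 15723 after 6 h. In IR29 HSP81-2 read 11040.5, 11715 and 12904 unstressed, 13938, 14134 and 14079.8 after 3 h and 15893, 14674 and 14859 after 6 h. Salt arrays did not overlap with controls in any cultivar. For HSP81-2 the change at 3 h (SE 0.049) was 0.31 in Nonabokra (adjusted p = 3.1e-05), 0.16 in Pokkali (adjusted p = 0.017) and 0.24 in IR29 (adjusted p = 4.3e-04), and at 6 h it was 0.62 in Nonabokra (adjusted p = 4.4e-09), 0.23 in Pokkali (adjusted p = 0.0011) and 0.35 in IR29 (adjusted p = 1.5e-05). The Pokkali call at 3 h was lost without Pokkali control replicate 1 (0.13, adjusted p = 0.11) or Pokkali 3 h replicate 3 (0.15, adjusted p = 0.064).

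HSP81-3 read 13251, 13664 and 13639 in unstressed Nonabokra, 20008, 18460.0 and 18458 after 3 h in salt and 20108, 18656 and 18802 after 6 h. In Pokkali HSP81-3 read 15277, 16074 and 15820.2 unstressed, 19075, 19294 and 18529 after 3 h and 18473, 19435 and 18192 after 6 h. In IR29 HSP81-3 read 12568, 12174 and 11212 unstressed, 16301, 14138 and 15118 after 3 h and 14796, 12941 and 13115 after 6 h. The arrays of each salt group lay above the controls of the same cultivar, in IR29 at 6 h by little. For HSP81-3 the change at 3 h (SE 0.055) was 0.49 in Nonabokra (adjusted p = 4.4e-07), 0.27 in Pokkali (adjusted p = 6.6e-04) and 0.34 in IR29 (adjusted p = 5.4e-05), and at 6 h it was 0.50 in Nonabokra (adjusted p = 4.5e-07), 0.25 in Pokkali (adjusted p = 0.0019) and 0.18 in IR29 (adjusted p = 0.011). The IR29 call at 6 h was lost without IR29 control replicate 3 (0.14, adjusted p = 0.058) or IR29 6 h replicate 1 (0.12, adjusted p = 0.064). Of the other probe sets of HSP81-3, the one with a mean intensity of 3356 was called higher only in Nonabokra (0.46 at 3 h and 0.66 at 6 h), with changes between -0.068 and 0.32 in the other salt comparisons. The one with a mean of 794 rose by 0.77 in Nonabokra and 0.29 in Pokkali at 3 h, and by 0.83 and 0.38 at 6 h, and in IR29 gave 0.22 at 3 h, just called, and 0.19 at 6 h, not called.

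Among the 10 class A factors, 5 rose and 2 fell in Nonabokra at 3 h, 2 rose and 4 fell in Pokkali, and 8 rose in IR29. Of all genes, 57.6%, 53.1% and 64.1% were called in either direction in those comparisons. HSFA6B, whose Arabidopsis relatives are tied to abscisic acid and drought, HSFA4D and HSFA3 passed a 2-fold change in at least 1 cultivar. HSFA2A did so too, on its brightest probe set. HSFA6B read 64.1, 59.5 and 63.6 in unstressed Nonabokra, 446, 496 and 494 after 3 h in salt and 199.9, 189 and 193 after 6 h. In Pokkali HSFA6B read 229.5, 243 and 255 unstressed, 225, 212 and 185 after 3 h and 275, 283 and 271 after 6 h. In IR29 HSFA6B read 32.5, 30.3 and 29.4 unstressed, 157, 156 and 173 after 3 h and 195, 159 and 159 after 6 h. The salt arrays stood well above their controls in Nonabokra and IR29, and in Pokkali all 9 arrays lay between 185 and 283. For HSFA6B the change at 3 h (SE 0.07) was 2.66 in Nonabokra (adjusted p = 8.8e-17), -0.21 in Pokkali (adjusted p = 0.027) and 1.93 in IR29 (adjusted p = 2.6e-14). At 6 h HSFA6B gave 1.42 in Nonabokra (adjusted p = 3.0e-12), 0.18 in Pokkali (adjusted p = 0.079) and 1.99 in IR29 (adjusted p = 2.8e-14). The small Pokkali fall at 3 h was lost without Pokkali control replicate 2 (-0.21, adjusted p = 0.066) or 3 (-0.18, adjusted p = 0.12) or Pokkali 3 h replicate 3 (-0.14, adjusted p = 0.20), and a Pokkali call at 6 h appeared without IR29 6 h replicate 1 (0.18, adjusted p = 0.029).

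HSFA4D, known in rice as Spotted leaf 7, moved in opposite directions. HSFA4D read 95.7, 80.0 and 83.0 in unstressed Nonabokra, 53.1, 42.6 and 46.8 after 3 h in salt and 29.1, 37.1 and 41.6 after 6 h. In Pokkali HSFA4D read 187, 173 and 200.4 unstressed, 68.9, 74.2 and 74.2 after 3 h and 62.1, 63.3 and 60.9 after 6 h. In IR29 HSFA4D read 24.09, 22.7 and 23.4 unstressed, 161, 159 and 159.7 after 3 h and 45.9, 41.4 and 36.2 after 6 h. Unstressed IR29 was the lowest of all groups and IR29 at 3 h the second highest, and the salt arrays of Nonabokra and Pokkali all lay below their controls. For HSFA4D the change at 3 h (SE 0.079) was -0.69 in Nonabokra (adjusted p = 5.8e-07), -1.20 in Pokkali (adjusted p = 2.0e-10) and 2.16 in IR29 (adjusted p = 3.3e-14). At 6 h HSFA4D gave -0.98 in Nonabokra (adjusted p = 6.1e-09), -1.37 in Pokkali (adjusted p = 4.4e-11) and 0.53 in IR29 (adjusted p = 3.2e-05).

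HSFA3, which in Arabidopsis acts downstream of the drought factor DREB2A, was the one class A factor called higher in all 3 cultivars at 6 h. HSFA3 read 75.2, 78.4 and 79.1 in unstressed Nonabokra, 137, 100.5 and 119 after 3 h in salt and 139, 159 and 169.7 after 6 h. In Pokkali HSFA3 read 74.5, 79.3 and 71.6 unstressed, 92.6, 102 and 77.0 after 3 h and 261, 288 and 286 after 6 h. In IR29 HSFA3 read 60.5, 73.8 and 51.0 unstressed, 107, 98.3 and 94.1 after 3 h and 153, 191 and 182 after 6 h. The 6 h arrays were above the controls everywhere and were the highest of the 3 times on average, and only Pokkali at 3 h overlapped with its controls. For HSFA3 the change at 3 h (SE 0.11) was 0.52 in Nonabokra (adjusted p = 9.6e-04), 0.22 in Pokkali (adjusted p = 0.20) and 0.58 in IR29 (adjusted p = 2.8e-04). At 6 h HSFA3 gave 0.87 in Nonabokra (adjusted p = 3.6e-06), 1.69 in Pokkali (adjusted p = 3.5e-10) and 1.31 in IR29 (adjusted p = 2.0e-08).

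The other 7 class A factors changed less. HSFA2A, of the heat-induced HSFA2 group, read 25, 39.9 and 27.04 in unstressed Pokkali, 6.52, 6.53 and 6.55 after 3 h and 11.9, 23 and 19.5 after 6 h, and was at most 11.9 on any array of Nonabokra or IR29. On this probe set HSFA2A fell in Pokkali at 3 h (-1.04, adjusted p = 8.6e-08) and again at 6 h (-0.45, adjusted p = 0.0027). Its other, dimmer probe sets were not called in Pokkali at 3 h (-0.049 and -0.020). The one of these with a mean intensity of 7.67 gave 0.46 at 6 h (adjusted p = 2.4e-04), so the fall depends on the probe set. HSFA9, linked to seed maturation in sunflower and Arabidopsis, rose in Pokkali by 0.76 at 3 h and 0.96 at 6 h, to 739 ± 26.3 at 6 h against 373 ± 21.4 unstressed (intensity, mean ± SD, n = 3). At 3 h HSFA9 averaged 360 ± 15.8 in IR29, against 252 ± 20.8 unstressed. In Nonabokra it averaged 430 ± 18.7 at 3 h, against 354 ± 26.0 unstressed, a difference that was not called. HSFA1, whose tomato relative starts the heat response, was called only in IR29 at 3 h (0.41) and ranged from 463 to 802. HSFA2E rose at 3 h by 0.31 (Nonabokra), 0.17 (Pokkali) and 0.62 (IR29), the Pokkali call being lost without Pokkali control replicate 3 or Pokkali 3 h replicate 2 (0.13 to 0.20 over all arrays left out in turn). HSFA2B rose in IR29 by 0.72 at 3 h. HSFA2B fell in Pokkali at 3 h (-0.39), and its call in Nonabokra (0.25) was lost without any of 19 arrays taken singly (0.21 to 0.29). HSFA4B, at 167 to 304 over all arrays, rose at 3 h in Nonabokra (0.37) and IR29 (0.52), and HSFA5, at 207 to 306, fell in Nonabokra at 3 h (-0.28) and 6 h (-0.39).

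Of the 5 class B factors, HSFB2A, HSFB2C and HSFB1 were called higher in all 6 salt comparisons. HSFB2A read 59.4, 56.2 and 70.9 in unstressed Nonabokra, 628, 660.0 and 686 after 3 h in salt and 388, 272 and 243 after 6 h. In Pokkali HSFB2A read 163, 174 and 189 unstressed, 514, 561 and 511 after 3 h and 437, 388 and 363 after 6 h. In IR29 HSFB2A read 139.6, 154 and 133 unstressed, 505, 489.9 and 465 after 3 h and 619.8, 495 and 499.7 after 6 h. No salt array overlapped with a control, and Nonabokra started from the lowest unstressed level. For HSFB2A the change at 3 h (SE 0.12) was 3.11 in Nonabokra (adjusted p = 5.0e-14), 1.51 in Pokkali (adjusted p = 4.5e-09) and 1.67 in IR29 (adjusted p = 1.3e-09). At 6 h HSFB2A gave 2.00 in Nonabokra (adjusted p = 9.8e-11), 1.11 in Pokkali (adjusted p = 6.7e-07) and 1.80 in IR29 (adjusted p = 7.4e-10). At 3 h the second probe set of HSFB2A gave 2.50 in Nonabokra, 1.06 in Pokkali and 1.29 in IR29, all called higher.

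HSFB2C read 131, 119.5 and 122 in unstressed Nonabokra, 662, 662 and 664 after 3 h in salt and 297, 243 and 214 after 6 h. In Pokkali HSFB2C read 207, 199 and 214 unstressed, 605, 666 and 689 after 3 h and 433, 393 and 369 after 6 h. In IR29 HSFB2C read 140.4, 173 and 142 unstressed, 677, 667 and 632 after 3 h and 545, 368 and 402 after 6 h. The 9 arrays at 3 h lay between 605 and 689, above every unstressed array. For HSFB2C the change at 3 h (SE 0.12) was 2.28 in Nonabokra (adjusted p = 2.3e-12), 1.59 in Pokkali (adjusted p = 8.2e-10) and 2.01 in IR29 (adjusted p = 2.9e-11). At 6 h HSFB2C gave 0.92 in Nonabokra (adjusted p = 2.8e-06), 0.89 in Pokkali (adjusted p = 4.7e-06) and 1.42 in IR29 (adjusted p = 9.4e-09). HSFB2C has 2 other probe sets, which at 3 h gave 3.26 and 1.32 in Nonabokra, 2.64 and 1.0 in Pokkali, and 3.24 and 1.14 in IR29.

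HSFB1 read 211, 198 and 214 in unstressed Nonabokra, 504, 469.8 and 499.8 after 3 h in salt and 392, 396 and 379.6 after 6 h. In Pokkali HSFB1 read 446, 464 and 436 unstressed, 603, 577 and 562 after 3 h and 553, 541 and 508 after 6 h. In IR29 HSFB1 read 175, 208 and 191 unstressed, 439.8, 408 and 400.1 after 3 h and 323, 369 and 342 after 6 h. Salt arrays did not overlap with controls, and unstressed Pokkali stood near the salt levels of the other 2 cultivars. For HSFB1 the change at 3 h (SE 0.055) was 1.18 in Nonabokra (adjusted p = 5.6e-13), 0.36 in Pokkali (adjusted p = 2.3e-05) and 1.06 in IR29 (adjusted p = 5.7e-12), and at 6 h it was 0.86 in Nonabokra (adjusted p = 1.6e-10), 0.24 in Pokkali (adjusted p = 0.0021) and 0.80 in IR29 (adjusted p = 7.5e-10). HSFB2B was dimmer, at 22.0 to 77.1, and was called at 3 h in Nonabokra (0.70) and IR29 (0.41) and at 6 h in Pokkali (0.70) and IR29 (0.69). HSFB4B, at 103 to 198, was called in no salt comparison on its brightest probe set.

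The class C factors HSFC2A and HSFC1B gave the second largest rise and the largest fall of the set. HSFC2A read 33.9, 37.0 and 37.4 in unstressed Nonabokra, 662, 742 and 689 after 3 h in salt and 232, 229.7 and 211 after 6 h. In Pokkali HSFC2A read 454, 415 and 448 unstressed, 564, 639 and 615 after 3 h and 394, 372 and 396 after 6 h. In IR29 HSFC2A read 49.5, 58.5 and 43.6 unstressed, 253, 278 and 269.9 after 3 h and 215, 252 and 287 after 6 h. Unstressed Pokkali was higher than any IR29 array, salt or not, and higher than the 6 h arrays of Nonabokra. For HSFC2A the change at 3 h (SE 0.084) was 3.77 in Nonabokra (adjusted p = 7.3e-18), 0.45 in Pokkali (adjusted p = 2.8e-04) and 2.09 in IR29 (adjusted p = 1.4e-13). At 6 h HSFC2A gave 2.20 in Nonabokra (adjusted p = 6.2e-14), -0.17 in Pokkali (adjusted p = 0.14) and 2.00 in IR29 (adjusted p = 4.5e-13).

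HSFC1B read 843, 882 and 785 in unstressed Nonabokra, 191, 196 and 184 after 3 h in salt and 558, 496 and 572 after 6 h. In Pokkali HSFC1B read 698, 746 and 766 unstressed, 120.0, 112 and 128 after 3 h and 571, 658 and 548 after 6 h. In IR29 HSFC1B read 170.4, 184 and 195 unstressed, 58.7, 54.7 and 45.2 after 3 h and 294, 296 and 269 after 6 h. In each cultivar the 3 h arrays were the lowest and the 6 h arrays had come back up, in IR29 to above the controls. For HSFC1B the change at 3 h (SE 0.078) was -2.05 in Nonabokra (adjusted p = 2.7e-14), -2.47 in Pokkali (adjusted p = 2.6e-15) and -1.53 in IR29 (adjusted p = 4.6e-12). At 6 h HSFC1B gave -0.61 in Nonabokra (adjusted p = 3.4e-06), -0.31 in Pokkali (adjusted p = 0.0055) and 0.60 in IR29 (adjusted p = 5.7e-06). HSFC1A, at 8.58 to 39.9, fell in Pokkali at 3 h (-0.81) and 6 h (-0.58) and rose in IR29 at 3 h (0.43) and 6 h (0.33).

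**Figure D3:**
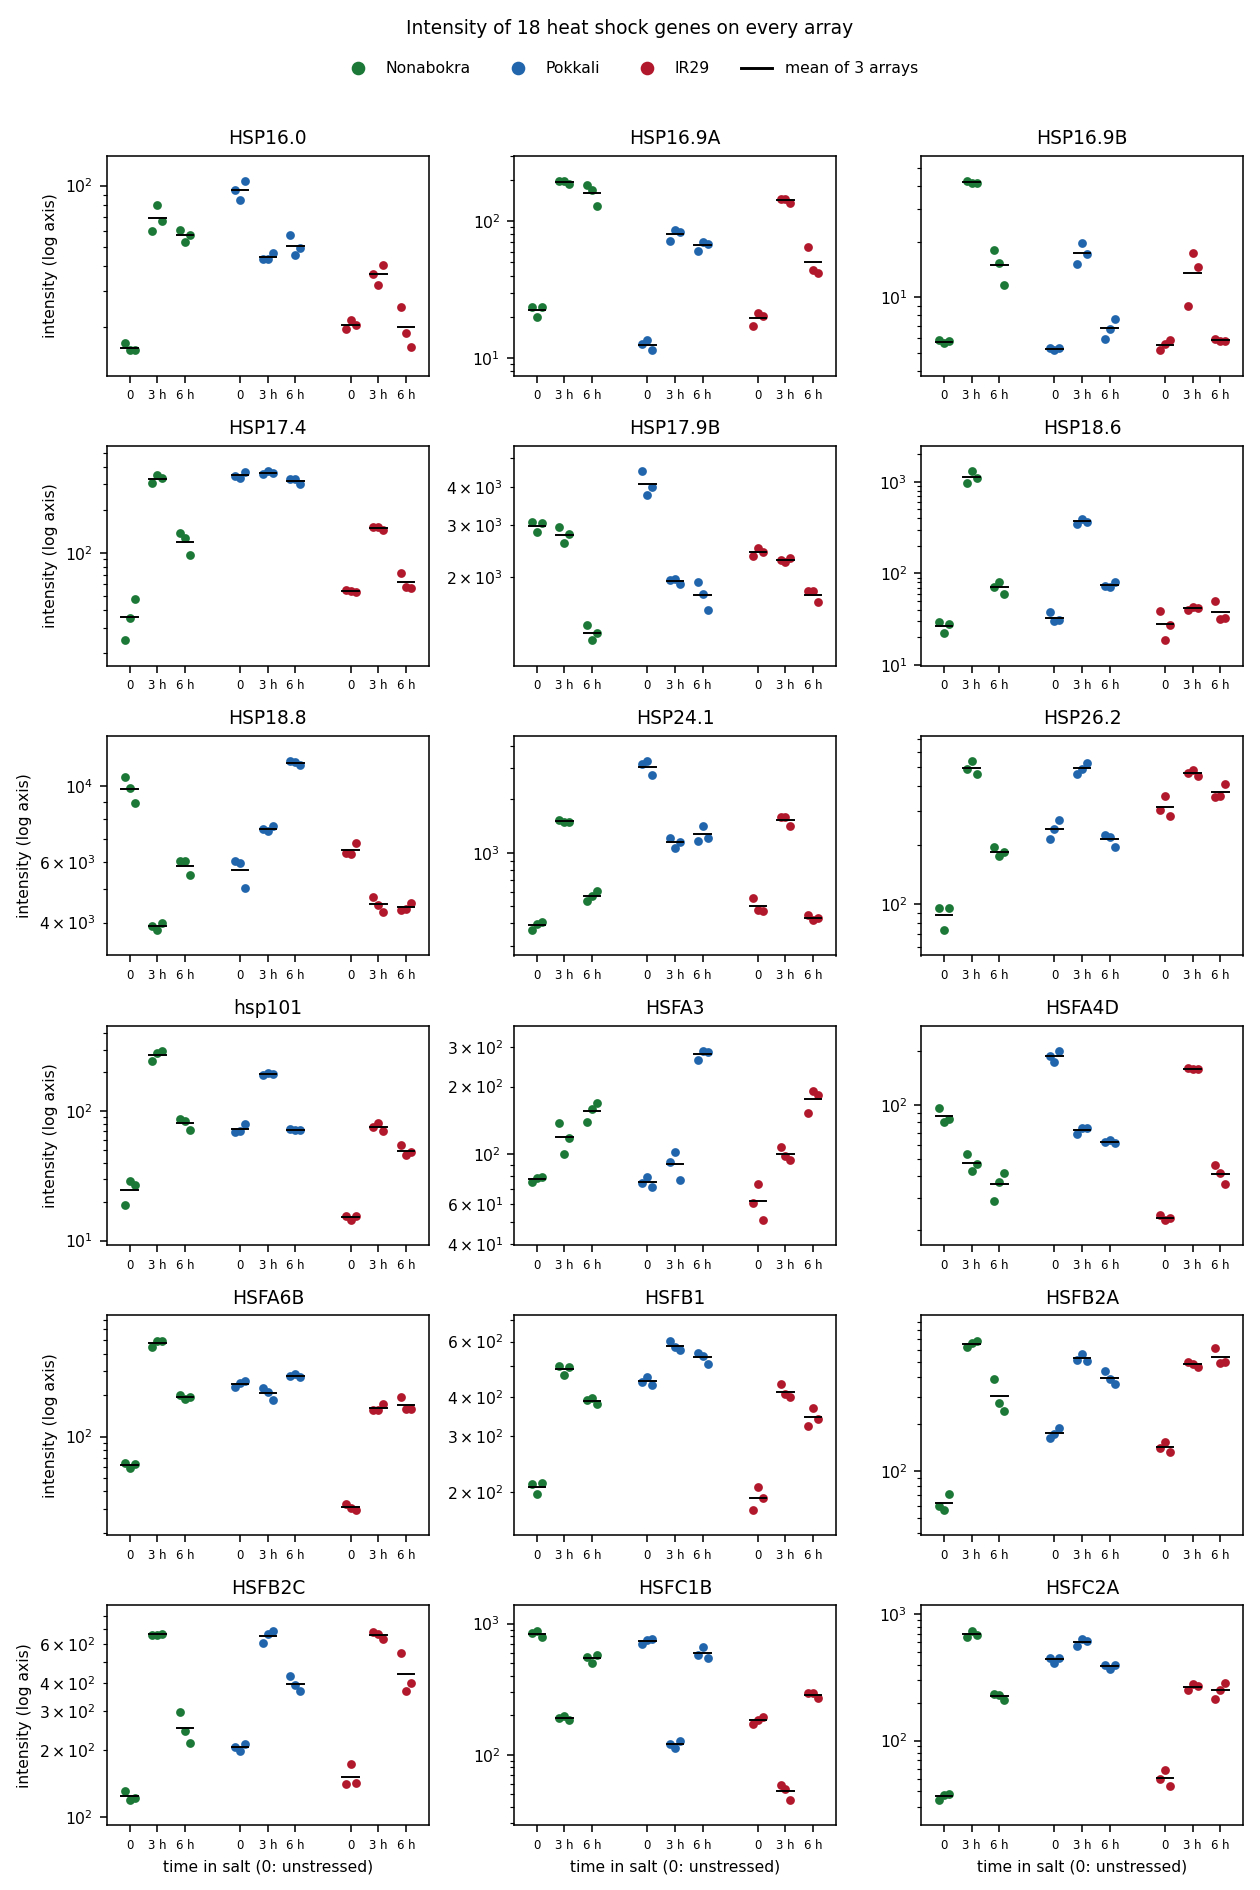
Each point is the intensity of 1 array on a log axis for the 18 genes named by the size of their change, with time in salt (0 for unstressed, then 3 h and 6 h) within Nonabokra (green), Pokkali (blue) and IR29 (red), and lines at the mean of 3 arrays. HSP18.6 peaks at 3 h in Nonabokra and Pokkali, and HSFC1B dips at 3 h in all 3 cultivars.

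Between 3 h and 6 h more of the genes fell than rose in each cultivar, though in Pokkali they were called less often than all genes. Against the 3 h arrays, 5 of the 40 genes were higher at 6 h and 17 lower in Nonabokra, with 44.7% of all genes called, 6 higher and 9 lower in Pokkali (44.0%), and 2 higher and 15 lower in IR29 (30.8%). Of all genes, 22.8% were called lower in Nonabokra, 20.4% in Pokkali and 16.7% in IR29. The 9 genes lower in Pokkali were thus close to the share of all genes, and 37.5% of the 40 were called there. With the compared groups fitted alone the IR29 counts were 2 higher and 8 lower. Falls of 2-fold or more were made by 10 genes in Nonabokra, against 3.03% of all genes, by 3 in Pokkali (1.36%) and by 4 in IR29 (1.01%). HSP18.6 changed by -3.72 in Nonabokra (SE 0.15, adjusted p = 2.1e-13) and by -2.10 in Pokkali (adjusted p = 1.3e-09). In IR29 the 4 genes were HSP24.1 (-1.79), HSFA4D (-1.62), HSP16.9A (-1.27) and HSP17.4 (-1.08). HSFC1B and HSFA3 were higher at 6 h than at 3 h in all 3 cultivars, HSFC1B by 1.43 in Nonabokra, 2.16 in Pokkali and 2.14 in IR29, and HSFA3 by 0.36, 1.47 and 0.72 in the same cultivars. These comparisons share the 3 h arrays with the salt comparisons above.

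Before salt, many of these genes stood higher in Pokkali than in the other cultivars. Unstressed Nonabokra had 15 of the 40 genes higher and 10 lower than unstressed IR29, with 51.7% of all genes called. Unstressed Pokkali had 24 higher and 5 lower than unstressed IR29, with 61.8% of all genes called, and 10 of the 24 by 2-fold or more, against 5.19% of all genes. Unstressed Nonabokra had 4 higher and 21 lower than unstressed Pokkali, with 39.7% of all genes called, and 10 of the 21 by 2-fold or more, against 3.30% of all genes. With the replicate number as a block in a fit of these 2 groups alone, 2 were higher and 17 lower. Of all probe sets, 56.0%, 61.9% and 19.4% were called in the 3 comparisons in this order, so their calls were not equally strict. The 3 comparisons share arrays pairwise, so their values are given side by side. HSP24.1 averaged 389.9 ± 20.5 in Nonabokra, 3059.8 ± 284 in Pokkali and 500.0 ± 46.2 in IR29 (intensity, mean ± SD, n = 3 each). In the same unstressed groups HSFC2A averaged 36.1 ± 1.93, 439 ± 21.1 and 50.5 ± 7.49, and HSP17.4 averaged 35.7 ± 11.5, 349 ± 17.67 and 54.2 ± 0.785.

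The difference of unstressed Pokkali from IR29 was 2.78 for HSFC2A (SE 0.084, adjusted p = 7.9e-16), 2.58 for HSP24.1 (adjusted p = 1.6e-15), 2.47 for HSFA6B (adjusted p = 2.5e-16), 2.38 for HSP17.4 (adjusted p = 2.8e-12) and 1.60 for HSP16.0 (adjusted p = 3.2e-11). Nonabokra minus Pokkali gave -3.13 for HSFC2A, -2.92 for HSP24.1, -1.72 for HSFA6B, -2.84 for HSP17.4 and -1.80 for HSP16.0, with adjusted p of 8.3e-12 or smaller. HSFA2A differed by -1.13 between Nonabokra and Pokkali (adjusted p = 4.3e-08), and by the same amount with adjusted p = 0.057 when the replicate number was a block in these 2 groups. HSP16.9A and HSP18.8 were lower in unstressed Pokkali than in either other cultivar: Nonabokra minus Pokkali was 0.43 for HSP16.9A (adjusted p = 0.0075, or 0.080 with the block) and 0.78 for HSP18.8 (adjusted p = 5.7e-09). Against IR29, Pokkali gave -0.32 for HSP16.9A, a call lost without Pokkali control replicate 3 or IR29 control replicate 2, and -0.20 for HSP18.8, a call lost without Pokkali control replicate 3 (-0.12). HSFC1B and HSFA4D were lowest in unstressed IR29: Nonabokra minus IR29 was 2.10 and 1.37, and Pokkali minus IR29 was 1.92 and 2.36. HSP26.2 was lowest in Nonabokra, with -1.66 against IR29 and -1.31 against Pokkali.

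**Figure D4:**
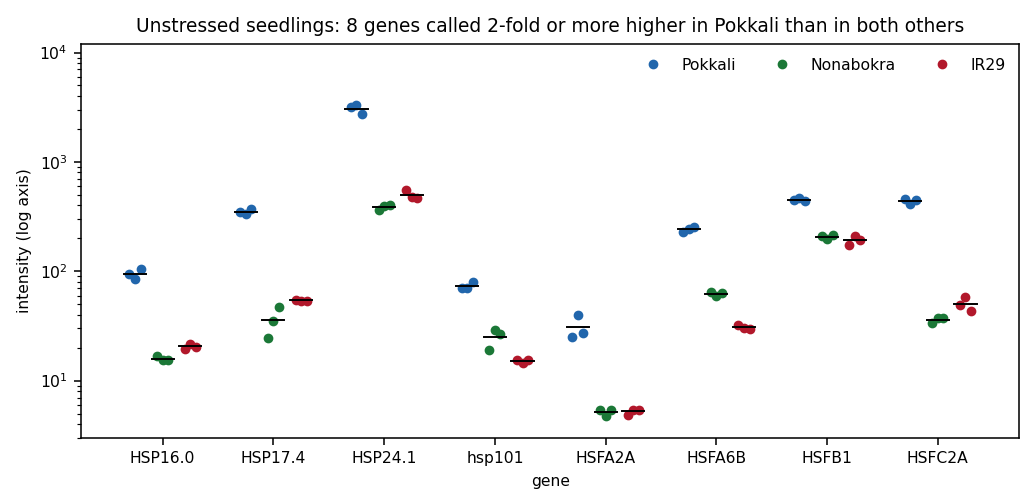
Points are the intensities (log axis) of the 3 unstressed arrays of each cultivar, with lines at their means, for the 8 genes chosen because unstressed Pokkali was 2-fold or more above both other cultivars. In each gene the 3 Pokkali arrays lie above all arrays of Nonabokra and IR29.

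The salt responses were then compared between cultivars by testing the difference of 2 changes. At 3 h the response of Nonabokra exceeded that of IR29 for 12 genes and was below it for 9, with 37.4% of all genes called, and that of Pokkali exceeded IR29 for 5 and was below for 21 (44.8%). Nonabokra exceeded Pokkali for 21 genes and was below for 2, against 14.5% and 12.2% of all genes. The 2 were HSP18.8 and, on its brightest probe set, HSP18.1. At 6 h the counts were 11 above and 10 below for Nonabokra against IR29 (31.1% of all genes called), 4 above and 16 below for Pokkali against IR29 (26.9%), and 17 above and 5 below for Nonabokra against Pokkali (28.4%). These tests reuse the same unstressed arrays as the salt comparisons and as the unstressed comparisons, so a high unstressed level and a low change in Pokkali rest on shared arrays.

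HSP18.6 responded more strongly at 3 h in Nonabokra than in IR29 by 4.34 (SE 0.21, adjusted p = 4.5e-12), and in Pokkali than in IR29 by 2.58 (adjusted p = 1.1e-08). The HSFA4D response at 3 h was below that of IR29 by -3.35 in Pokkali (SE 0.11, adjusted p = 3.9e-14) and by -2.85 in Nonabokra (adjusted p = 2.6e-13). For 5 genes the response at 3 h in Nonabokra most exceeded that in Pokkali: HSFC2A by 3.33 (SE 0.12, adjusted p = 9.5e-14), HSP24.1 by 3.31 (adjusted p = 6.8e-14), HSFA6B by 2.87 (adjusted p = 5.3e-14), HSP17.4 by 2.71 (adjusted p = 4.8e-10) and HSP16.0 by 2.29 (adjusted p = 1.6e-10). HSP18.8 went the other way at 6 h, with Nonabokra minus Pokkali at -1.78 (SE 0.088, adjusted p = 1.6e-11). At 6 h the response of HSP18.6 differed between Nonabokra and IR29 by 0.72 (adjusted p = 0.02, or 0.10 with a replicate block in the compared groups alone), and between Nonabokra and Pokkali the difference was 0.14 (SE 0.21, adjusted p = 0.78), not called. The response of HSFB2C at 3 h differed from that in IR29 by 0.26 in Nonabokra (adjusted p = 0.21, not called) and by -0.43 in Pokkali (adjusted p = 0.04).

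**Figure D5:**
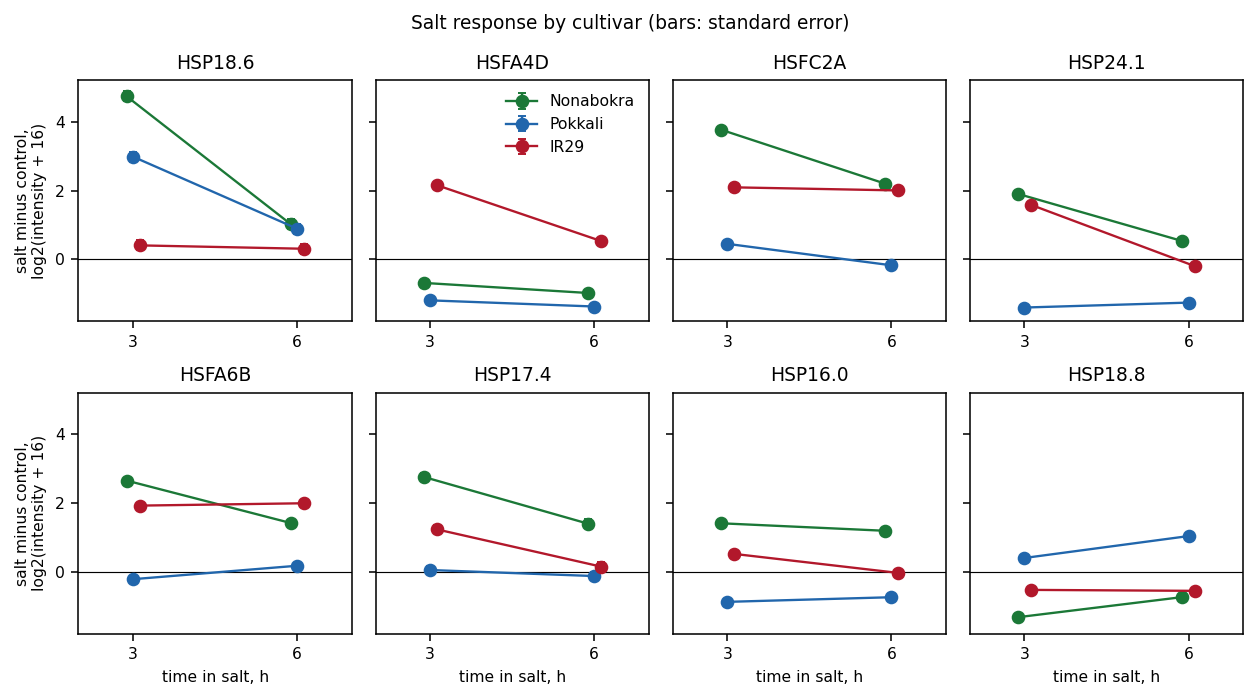
Points give the change in salt (log2(intensity + 16), salt minus control) at 3 h and 6 h for the 8 genes with the largest difference in response between 2 cultivars, in Nonabokra (green), Pokkali (blue) and IR29 (red), with bars for the SE of the fit, which are often smaller than the points. HSFA4D is above 0 in IR29 and below 0 in Nonabokra and Pokkali, and HSP24.1 at 3 h is below 0 only in Pokkali.

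Other chaperones and stress proteins were read from a list of 23 genes picked by name, of which 18 had a probe set. At 3 h, 7 of the 18 were higher and 5 lower in Nonabokra, 7 higher and 2 lower in Pokkali, and 8 higher and 4 lower in IR29. Of all genes, 57.6%, 53.1% and 64.1% were called in either direction there. At 6 h the counts were 6 and 4, 5 and 2, and 7 and 5 in the same cultivars, beside 47.1%, 43.5% and 52.9% of all genes called. The list was thus called about as often as all genes. CLPD1, a Clp ATPase of the chloroplast, rose most, with changes at 3 h (SE 0.10) of 2.70 in Nonabokra (adjusted p = 1.4e-14), 1.92 in Pokkali (adjusted p = 3.9e-12) and 2.25 in IR29 (adjusted p = 5.0e-13), and at 6 h of 2.01 in Nonabokra (adjusted p = 2.9e-12), 2.40 in Pokkali (adjusted p = 2.4e-13) and 2.44 in IR29 (adjusted p = 2.4e-13). CLPB-M, the mitochondrial relative of hsp101, rose at 3 h by 2.00 in Nonabokra (adjusted p = 2.4e-12), 1.21 in Pokkali (adjusted p = 6.8e-09) and 1.26 in IR29 (adjusted p = 5.0e-09), and at 6 h was not called in any cultivar (0.15, 0.28 and 0.20). DJC27, a J-domain co-chaperone, rose at 3 h by 1.79 in Nonabokra, 1.14 in Pokkali and 0.92 in IR29, and SGT1, an HSP90 co-chaperone of plant immunity, by 0.77, 0.41 and 0.51. CLPC2, another chloroplast Clp ATPase, rose in all 6 comparisons, by 0.22 to 0.63, and APX1, a cytosolic ascorbate peroxidase, rose at 3 h in Nonabokra (0.51) and Pokkali (0.36) but was not called in IR29 (-0.012). DJA6 fell in Nonabokra (-0.71) and Pokkali (-0.19) and rose in IR29 (0.56) at 3 h, and CLPD2 fell in Nonabokra (-0.65) and IR29 (-0.30).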

How the data were processed

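Whole-seedling RNA of 27 samples was measured on Affymetrix rice arrays, 3 in each of 9 groups. The deposited intensities hold 1 value per probe set and array on a linear scale. GCOS is named in the submitters' processing notes, and the summary and normalization methods are not given in the sources used here. Array medians were 7.09 to 7.77. They were 7.77, 7.53 and 7.46 in unstressed IR29, and at most 7.36 on the Nonabokra and Pokkali arrays. The 3 arrays per group limit the precision. Of 57381 probe sets, 187 control or reporter sets were left out. The platform annotation paired 22436 of the remaining 57194 with 1 gene, 95 with several and 34663 with none. Gene records and gene order come from the RefSeq table of the Japonica assembly ASM3414082v1, so the indica alleles may differ. A gene was read from its probe set of highest mean. For HSP18.0, HSP18.6, HSP18.8, HSP21.9, HSP26.2, HSP81-3, HSFA2A and HSFB4B that probe set has a name marking probes shared with other transcripts.

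Values were used as log2(intensity + 16) without further scaling. With limma 3.58.1 in R 4.3.3, all 27 arrays entered 1 model with a mean for each group (18 residual degrees of freedom), and p-values were adjusted by Benjamini-Hochberg over 57194 probe sets for each of 18 comparisons, with a threshold of 0.05. The fit was tested on simulated data with independent noise and few changed probe sets. Many more probe sets were called in the real comparisons, so that test does not show how the fit performs on them. Groups and replicate numbers follow the sample labels, which call the replicates biological. Values on every array are given for the 18 members with the largest changes of 2-fold or more and no overlap with the other group, and for the HSP90 genes. The 40 members, the list of other chaperones and stress proteins and the marker lists were chosen with earlier results of these data known. Of the other markers, 7 seed storage genes summed to 231 to 406 on every array.

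The labels do not say what a replicate number marks. Same-numbered arrays deviated together (all 3 correlations over 0.1) in 2 of 36 pairs of groups: unstressed Nonabokra with unstressed Pokkali (0.47, 0.16 and 0.19) and Nonabokra with IR29 at 6 h (0.73, 0.42 and 0.40). Fits of the compared groups alone with the replicate number as a block were added after the data were seen, for the first pair and for the response differences these pairs enter. Alternatives changed the pseudocount, the scaling, the filter on dim probe sets, the spread, the block, the threshold, the probe set rule and the arrays in the fit. Sequences of these genes were not used here.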

Additional observations from a re-analysis of the deposited data

Results flagged for a closer look

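The results listed here are those whose salt response differed most between 2 cultivars by the test of the difference itself (limma, Benjamini-Hochberg). At 3 h the response of HSP18.6 was 4.34 higher in Nonabokra than in IR29 (log2(intensity + 16) scale, SE 0.21, adjusted p = 4.5e-12), and that of HSFA4D in Pokkali minus IR29 was -3.35 (SE 0.11, adjusted p = 3.9e-14). Nonabokra minus Pokkali at 3 h was 3.33 for HSFC2A (SE 0.12, adjusted p = 9.5e-14) and 3.31 for HSP24.1 (SE 0.12, adjusted p = 6.8e-14). The same difference was 2.87 for HSFA6B (SE 0.099, adjusted p = 5.3e-14), 2.71 for HSP17.4 (SE 0.17, adjusted p = 4.8e-10) and 2.29 for HSP16.0 (SE 0.13, adjusted p = 1.6e-10). At 6 h Nonabokra minus Pokkali was -1.78 for HSP18.8 (SE 0.088, adjusted p = 1.6e-11). HSFC2A, HSP24.1, HSFA6B, HSP17.4 and HSP16.0 also differ between the unstressed arrays that enter these differences.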

How the results depend on the processing

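Of 202 counts of genes called under alternatives that kept every array or left out 3 together, 201 stayed within 1.5 times, and 1452 of 1480 changes of named genes kept direction and call. The exception among the counts was IR29 at 6 h against 3 h, with 10 genes called (2 higher, 8 lower) when the compared groups were fitted alone, against 17. The change of HSP81-1 in Nonabokra at 6 h turned to -0.054 (adjusted p = 0.72) with the mean of its probe sets. The rise of HSP18.6 in IR29 at 3 h was not called with a pseudocount of 64 (0.20), quantile normalization (0.27) or the mean of its probe sets (0.12). Leaving out each of the 27 arrays in turn kept all 486 counts within 1.5 times and 3594 of 3618 named changes, and at 3 h gave 26 to 29 genes called in Nonabokra, 22 to 24 in Pokkali and 31 to 34 in IR29.

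With the replicate block over all arrays, 12 calls of the 40 genes changed over the 18 comparisons, among them the 6 h changes in IR29 of HSP24.1 (adjusted p = 0.051) and HSP26.2 (adjusted p = 0.053). With the replicate block in unstressed Nonabokra and Pokkali alone, 19 genes were called (2 higher, 17 lower), against 25. The calls lost were of HSP16.9A (adjusted p = 0.080), HSP18.0 (0.062), HSP18.1 (0.052), HSFA2A (0.057), HSFA2E (0.057), HSFA4B (0.27) and HSFB2B (0.22), and HSP16.9B was gained (0.028). The same kind of fit for differences in response called 24 genes for Nonabokra against Pokkali at 3 h (21 above, 3 below), against 23, and 18 at 6 h (13 above, 5 below), against 22, losing HSFA2A (adjusted p = 0.17), HSFA4D (0.17), HSFB2A (0.061) and HSFC1A (0.072). For Nonabokra against IR29 at 6 h it called 15 (8 above, 7 below), against 21, losing HSP18.0 (0.12), HSP18.6 (0.10), HSP81-2 (0.15), HSFA2B (0.090), HSFB2B (0.10) and HSFB2C (0.21); these fits hold fewer arrays. Signal over background limits HSP16.6, HSP17.8, HSP21.9 and HSP26.7, which were under the pseudocount of 16 on every array.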

Other observations

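Gene records outside the 40 also carry names of these families. HSP17.9A, a class I small heat shock protein whose gene is separated from HSP17.4 by 4 genes, averaged 192 ± 13.2 in unstressed Nonabokra, 3294 ± 279 after 3 h in salt and 1179 ± 138 after 6 h (intensity, mean ± SD, n = 3). In Pokkali HSP17.9A averaged 239 ± 14.1 unstressed, 2061 ± 124 after 3 h and 894 ± 99.6 after 6 h, and in IR29 299 ± 18.3, 2254 ± 194 and 1165 ± 172 at the same times. At 3 h HSP17.9A changed by 3.99 (Nonabokra), 3.03 (Pokkali) and 2.85 (IR29), and 6 h of salt gave 2.52, 1.83 and 1.90. A record that carries the names HSFA2C and ARD1, so that its identity is uncertain here, changed at 3 h by 1.84 (Nonabokra), 3.18 (Pokkali) and 1.96 (IR29), and 6 h of salt gave 1.72, 2.33 and 1.14. A second such record, which carries the name HSFA2D beside an ARD name, averaged 3278 ± 118 in unstressed Nonabokra, 3507 ± 177 after 3 h in salt and 3017 ± 313 after 6 h. HSFA2D was called lower in Pokkali at 3 h (-0.23, adjusted p = 0.016) and 6 h (-0.27, adjusted p = 0.0068), and in IR29 was called higher at 3 h (0.23, adjusted p = 0.0085) and lower at 6 h (-0.53, adjusted p = 7.6e-06). In Nonabokra its changes of 0.097 at 3 h and -0.12 at 6 h were not called.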
